A study of Drosophila melanogaster with 5 samples.

Results

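H3K18ac, acetylation of lysine 18 of histone H3, was profiled by Cut&Run in wing imaginal discs, and the sites described here are the promoter peaks at which the mark was higher after etomoxir than in controls. The discs came from w1118 larvae of both sexes. The control group held 3 libraries, of which 2 were discs cultured for 2 h and 1 was discs dissected without culture, and the etomoxir group held 2 libraries of discs cultured for 2 h with 500 µM etomoxir. The deposited table gives 1 mean per group and peak, so the spread between libraries, the effect of culture itself and the depth of each library cannot be read from it. A peak was taken where the annotation began with promoter, which reaches 3 kb from a transcription start, and was then selected on the authors' group means, the etomoxir mean being above the control mean. Chromosome 4 and the 5 Mb nearest to the centromeric end of arms 2L, 3L and 3R were left out. The rule selected 232 peaks, assigned to 209 genes, of 2626 listed peaks in all. The other promoter peaks of the same regions, 1323 in number, were lower after etomoxir and are called lost below, and 115 gained promoter peaks lie in the regions left out.

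The table lists only peaks at which the authors' comparison of the groups reached an FDR of 0.05, and all 2626 did. Gained peaks made up 16.5% of all listed peaks and 14.9% of the listed promoter peaks in the selected regions. These shares restate the selection, and nothing is read from them. The rule was meant to keep to euchromatin, but it sets no limit on arm 2R or X. The 5 Mb at the centromeric end of 2R hold 38 of the 232 peaks, and repeats cover 38.7% of that sequence against 15.3% beyond 6 Mb. The peaks are therefore called gained promoter peaks of the selected regions, and results are also given without that stretch.

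H3K18ac is laid down mainly by CBP/p300 acetyltransferases, called Nejire in the fly, and marks active promoters and enhancers. The acetyl groups come from acetyl-CoA. Etomoxir blocks the carnitine-dependent import of long-chain fatty acids into mitochondria and thereby FABO, 1 of the routes by which cells make acetyl-CoA. Of the 209 selected genes, 16 are on lists of chaperones, which fold proteins, and their helpers. These lists, drawn up with earlier results of these data known, hold 64 genes of the selected regions. Of all 13231 protein-coding genes there, 187 (1.41%) had a gained promoter peak. In animals heat shock genes are typically driven by heat shock factor, which binds heat shock elements: repeats of GAA and its reverse TTC, spaced by 2 bases. An exact element was counted here as 3 alternating units, GAA, TTC and GAA or TTC, GAA and TTC, with any 2 bases between units.

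The following stretches are shown because they hold the exact elements of the 5 selected peaks with the largest differences among those that hold one and are printed here. They were read from the RefSeq sequence of the Release 6 assembly (dm6), plus strand, 5′ to 3′, and capitals mark the units of the elements.
CG5290: gatgggagTTCccGAAtgTTCcgcaaata
Chchd2: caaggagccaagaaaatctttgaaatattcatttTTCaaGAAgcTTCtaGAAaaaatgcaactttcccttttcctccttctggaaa
HP4: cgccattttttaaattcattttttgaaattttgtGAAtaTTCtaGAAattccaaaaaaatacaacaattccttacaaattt
Nlp: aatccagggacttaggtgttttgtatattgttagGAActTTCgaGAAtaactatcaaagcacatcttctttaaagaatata
CG10077: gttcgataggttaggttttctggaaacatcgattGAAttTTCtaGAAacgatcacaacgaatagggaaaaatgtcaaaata

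The CG5290 stretch is chr3L:17912545-17912573 and lies in the UTR at the very start of the transcript, with the centre of its element 6 bases after the start. The Chchd2 stretch, chrX:17150669-17150754, holds 4 units in a row, counted as 2 overlapping elements, and lies between genes, with the first element centred 1678 bases after the assigned start. The HP4 stretch, chr3L:7975191-7975271, is also between genes, 923 bases after the start. Those of Nlp, chr3R:30005798-30005878, and of CG10077, chr3L:6955528-6955608, lie in introns, the first with its element 887 bases after the assigned start and the second at -56 bases, just before it. Of the proteins, HP4 is a heterochromatin protein, Nlp a nucleoplasmin-like histone chaperone and CG10077 a DEAD-box helicase.

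Because the group means chose the peaks, the size of the gain is a description and was not tested. Over the 232 peaks the difference between the authors' log2 means, etomoxir minus control, ran from 0.37 to 4.27, with a median of 1.105 and quartiles of 0.79 and 1.538. A difference of 1 is a doubling of the mean normalized read count. It was at least 1 at 132 peaks, at least 2 at 38 peaks and at least 3 at 13 peaks. Of all listed peaks, 8.38% had an etomoxir mean above control by at least 1. That share has the lost peaks in its base but does not count their falls, so the 2 shares cannot be compared for size. The lost promoter peaks of the same regions had a median of -1.12 and reached -3.90. Per kb of interval, the median over the gained peaks was 74.5 normalized reads in control and 181 in etomoxir, while the lost peaks went from 105 to 46.6.

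Control level and difference are linked by construction, since the difference contains the control mean and both the rule and the authors' filter used these values. Where the difference was at least 2, the median control level was 35.0 normalized reads per kb and the median etomoxir level 243. Where it was under 1, the medians were 85.2 and 141. The plot of the group means shows this as a fan that narrows towards high control values. Without values per library, the counting error of the low control means could not be given.

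**Figure D1:**
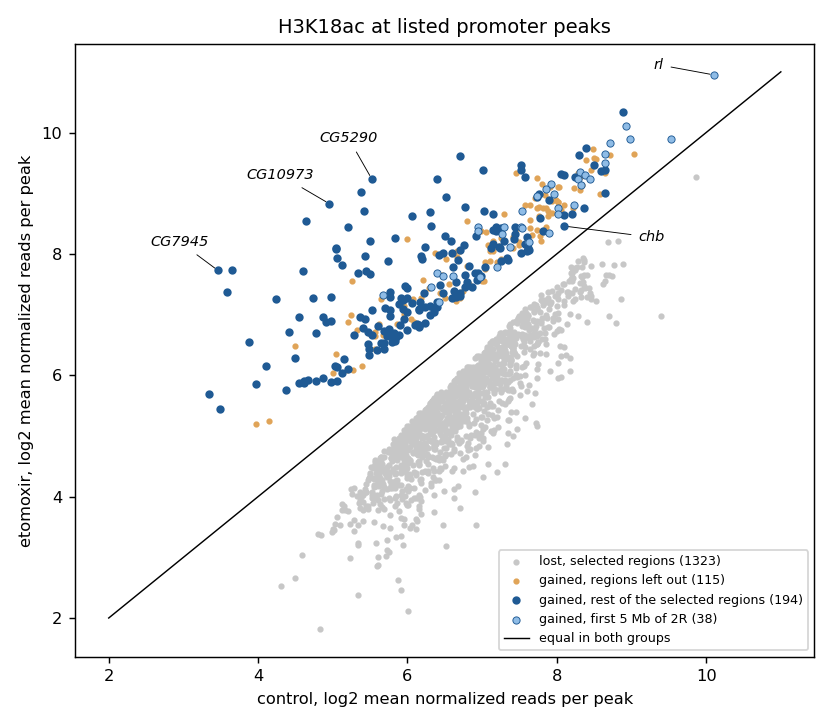
Authors' log2 mean normalized read count per promoter peak, control on the x axis and etomoxir on the y axis; each point is 1 peak, and the line marks equal values. The 232 gained peaks of the selected regions lie above the line by 0.37 to 4.27, and the 38 of them in the first 5 Mb of 2R range in control from 5.67 for CG17486 to 10.10 for rl, with a median of 7.80 against 6.155 for the other 194.

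The smallest gains sit at high levels. Chb, the microtubule plus-end protein CLASP, went from 8.09 to 8.46 on the log2 scale, and the Maf1 peak with the smallest gain, at a repressor of RNA polymerase III, from 9.53 to 9.90. A peak assigned to the identifier FBgn0259247 went from 8.64 to 9.01, so that all of these differ by 0.37. On the other side of zero, the promoter peaks with the smallest losses were those of Ugt302K1 at -0.39, CG31975 at -0.40 and Ugt317A1 at -0.42. No promoter peak of these regions with a difference between -0.39 and 0.37 was listed. By position, the peaks nearest to the limits of the rule were CkIIalpha inside and CG33217 outside on 3L, at 11.4 and 11.7 kb from the limit, with differences of 1.26 and 1.14.

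Of the 15 largest gains, 6 were at genes of the chaperone lists. These lists hold 64 genes of the selected regions, where 13231 protein-coding genes are annotated. They were drawn up with earlier results of these data known, so nothing is read from this count. The largest gain of all was at CG7945 on 3L (chr3L:15522557-15523330), listed here with the co-chaperones, where the authors' mean was 14.2 normalized reads per kb in control and 274 in etomoxir, a ratio of 19.3. Sgt1, a co-chaperone of Hsp90, went from 14.5 to 245 per kb (difference 4.08), and CG10973, from the same list, from 23.1 to 341 (3.88). Stip1, which links Hsp70 to Hsp90, followed with 21.9 and 273 (3.64). The mitochondrial Hsp70 Hsc70-5 went from 29.2 to 244 per kb (3.06), and the chaperonin subunit CCT4 from 29.8 to 242 (3.02). Over these 6 genes, which stand here for their large differences, control levels ran from 14.2 to 29.8 and etomoxir levels from 242 to 341 normalized reads per kb.

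The other peaks among the 15 largest belong to genes of more varied kinds. Shab, a voltage-gated potassium channel, had 27.8 normalized reads per kb in control and 270 in etomoxir (difference 3.28) in an interval that ends before the assigned start, at -238 bases. Chchd2, a small mitochondrial protein, had 26.1 and 247 (3.24), and the peak at pall, an F-box protein needed for the clearance of dying cells, 21.4 and 184 (3.11). Nop17l, of the PIH1 family of snoRNP assembly factors, had 24.8 and 204 (3.04), and nmdyn-D7, of the nucleoside diphosphate kinase family, 31.5 and 232 (2.88). CG6511 had the lowest control level of the 15, 11.6 per kb, and 161 per kb in etomoxir (3.79), and CG5290 had 26.1 and 344 (3.72). The identifiers FBgn0030294 (3.91) and FBgn0010812 (2.92) had no name in the annotation used. The second interval, chr3R:8033117-8035200, holds the start of unc-45, which encodes a myosin chaperone and was on the co-chaperone list.

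The values of 6 further genes are given after they were seen, and 3 of them, spag, BI-1 and Usp47, are on none of the lists. Droj2, a J-domain partner of Hsp70, had 42.5 normalized reads per kb in control and 228 in etomoxir (2.42), and spag, an Hsp90 co-chaperone of the RPAP3 family, 34.6 and 203 (2.55). BI-1, the Bax inhibitor 1 of the ER membrane, had 35.3 and 255 (2.85), and the deubiquitinase gene Usp47 49.4 and 252 (2.35). Usp47 and the J-domain gene DnaJ-1 are neighbours, with 251 bases between their intervals, so that they may not be independent. DnaJ-1 had 65.3 and 192 per kb (1.56), and stv, the BAG3 co-chaperone of the fly, 74.6 and 212 (1.51).

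**Figure D2:**
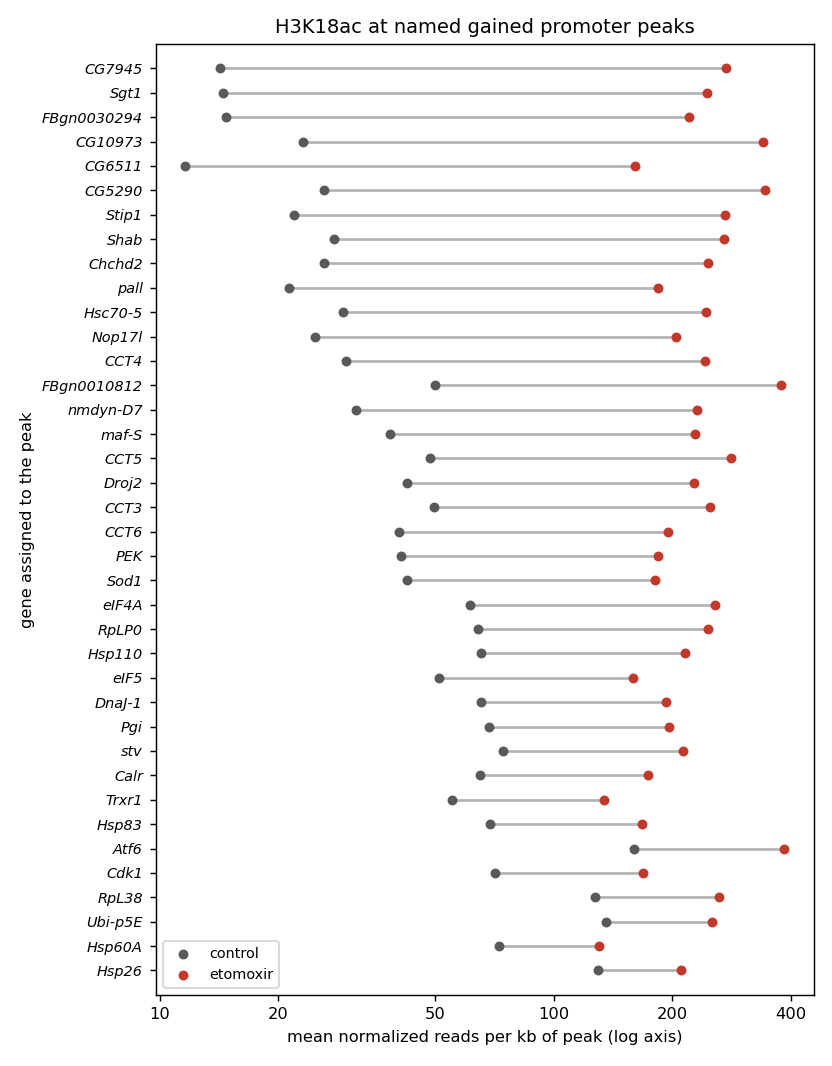
Authors' mean normalized reads per kb of peak (log axis) in control (grey) and etomoxir (red) for the peaks with the 15 largest differences and for every listed gene with a gained promoter peak, in order of the difference, with 1 peak per gene; the line joins the 2 means of a peak. Control values run from 11.6 for CG6511 to 160 for Atf6, and etomoxir values from 131 for Hsp60A to 386 for Atf6.

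Counts over gene lists put these names in context. Of 13231 protein-coding genes of the selected regions, 187 had a gained promoter peak (1.41%) and 826 a lost one (6.24%). This background holds all annotated genes, also those without the mark, which could not be listed. How many genes carry the mark is not known here, so the lists and the background may differ in that share. On the 4 chaperone lists the order was the opposite, with 16 of 64 genes gained and 1 lost. A gained peak was found at 7 of 17 co-chaperones (41.2%, 95% Wilson interval 21.6 to 64.0%), 4 of 14 chaperonin and prefoldin genes (28.6%), 2 of 12 mitochondrial chaperones and proteases (16.7%) and 3 of 21 cytosolic chaperones (14.3%). The gene with a lost promoter peak was mrj, a J-domain co-chaperone. The 3 cytosolic genes were Hsp110, an exchange factor of Hsp70, with a difference of 1.72, the Hsp90 gene Hsp83 with 1.28 and the small heat shock gene Hsp26 with 0.70. The chaperonin genes were all CCT subunits: beside CCT4, the differences were 2.54 for CCT5, 2.32 for CCT3 and 2.27 for CCT6. Hsp60A, the mitochondrial chaperonin, had 0.85. The intervals cover counting error only, and the lists were drawn up with earlier results of these data known.

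The lists of ER and oxidative stress genes gave shares in the range of the chaperone lists. Of 15 genes of the ER and integrated stress list, 3 had a gained peak (20%, 7.05 to 45.2%) and 1 a lost one. They were PEK, the ER-bound kinase of eIF2alpha (2.17), the ER chaperone Calr (1.41) and the transcription factor Atf6, with 2 peaks of which the larger gained 1.27. Both Atf6 peaks lie between 5 and 6 Mb on 2R, where 31 gained and 4 lost promoter peaks were listed. Of 15 oxidative stress genes, 3 were also gained (20%) and 2 lost. Maf-S, the small Maf partner of the antioxidant factor Cnc, had a difference of 2.57, Sod1, the cytosolic superoxide dismutase, 2.09 and the reductase Trxr1 1.28. The peak of cnc itself was among the lost ones, as was that of GstD2. The polyubiquitin gene Ubi-p5E (0.89) was the only gained gene of 14 on the ubiquitin and autophagy list (7.14%, 1.27 to 31.5%).

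Growth and metabolism lists are set beside the 1.41% of all protein-coding genes with a gained peak, a background that includes genes without the mark. Of 16 translation factors 2 were gained, eIF4A (2.06) and eIF5 (1.64), a share of 12.5% (3.50 to 36.0%). Of 80 ribosomal protein genes also 2 were gained, RpLP0 (1.94) and RpL38 (1.04 and 1.03), or 2.5% (0.688 to 8.66%), and 1 was lost. The RpLP0 interval also holds the starts of CG7130 and CG7133. Pgi, the isomerase of the second step of glycolysis (1.52), was the gained gene of 23 on the glycolysis and TCA cycle list (4.35%, 0.772 to 21.0%), where 1 was lost. Cdk1, the mitotic kinase (1.25), was that of 25 on the cell cycle list (4%, 0.710 to 19.5%), where 3 were lost. The interval of the translation factors lies above 1.41%, and the other intervals include it. Because several lists were compared and were drawn up with earlier results of these data known, nothing is read from this. No gained promoter peak was listed for 31 proteasome genes (Wilson interval up to 11.03%), 19 genes of fatty acid oxidation and acetyl-CoA (up to 16.8%), 21 acetyltransferases and deacetylases (up to 15.5%) or 13 ribosome biogenesis genes (up to 22.8%). At 1.41% a count of 0 is near the background for lists of this size. Lost promoter peaks were listed for 2 of the 19 genes, the acetyl-CoA enzymes ACC and AcCoAS, and for 1 gene in each of the other lists. No gained peak was listed either for 18 genes of JNK, JAK/STAT and cell death (up to 17.6%) or for 33 wing disc patterning genes (up to 10.4%). At 1.41% these counts of 0 are near the background as well. Lost promoter peaks were listed for 8 and 14 of them (44.4% and 42.4%), against 6.24% of all protein-coding genes. These lists too were drawn up with earlier results of these data known, and nothing is read from these shares.

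Of the marker genes fixed for the tissue, none had a gained promoter peak. Lost promoter peaks were listed for 3 of 7 markers of the disc epithelium (ap, en and sd) and for the tracheal marker trh, and none of the markers of muscle precursors (3 genes), haemocytes (3), fat body (3) and neurons (2) was assigned a listed promoter peak in either direction. A gene absent from the table may carry the mark at equal levels in both groups or not at all. Fewer cells of a type and less of the mark per cell cannot be told apart in whole discs.

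The gained peaks lay closer to the start than the lost ones and less often wholly before it. Of 232 gained peaks, 124 covered the assigned start (53.4%, Wilson interval 47.03 to 59.8%), against 510 of 1323 lost peaks (38.5%, 36.0 to 41.2%). At a difference of at least 2 the share was 44.7% (30.2 to 60.3%), an interval that includes the lost share. Gained peaks were also wider as a set, as given below, and the part of width in these shares was not tested. Intervals wholly before the start made up 14.7% of gained (10.7 to 19.8%) and 34.01% of lost peaks (31.5 to 36.6%). The 74 gained peaks wholly after the start began within 200 bases of it in 41 cases, while only 60 of 363 such lost peaks did. The upper quartile of the centre was 595 bases after the start for gained and 698.5 for lost peaks. The median centre of a gained peak was 140.5 bases after the start and that of a lost peak lay before it, at -120 bases. With a difference of at least 2, the median centre was 450.5 bases after the start, and only 2 of those 38 peaks lay wholly before it. The intervals of Sgt1 and CCT4, for example, began 21 bases after the start, that of Stip1 16 bases and that of Hsc70-5 32 bases after it.

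**Figure D3:**
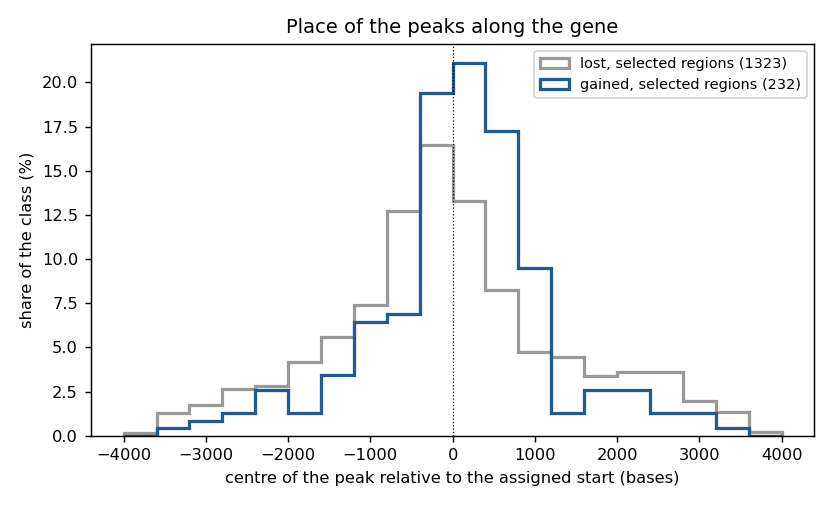
Share of each class of promoter peaks (%) by the place of the peak centre along the gene, in bases from the assigned start (negative values lie before the start), for 232 gained (blue) and 1323 lost (grey) peaks. The blue outline is highest just after the start, and its median is at 140.5 bases, while the grey outline leans to the side before the start with a median at -120 bases.

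Taken as a whole set, gained peaks were wider, and their sequence was poorer in G and C. The median width was 1162 bases (95% interval of the median 1091 to 1336) against 948 (912 to 992) for lost peaks, with a range from 261 to 4451 bases. The widest were those of Haspin, a histone H3 kinase, with 4451 bases, of CG3107 with 4077 and of Maf1 with 3957, all on 2R near the centromere. Median GC content was 39.6% (38.7 to 40.6%) for gained and 45.1% (44.7 to 45.4%) for lost peaks. Without the first 5 Mb of 2R the gained median was 40.7% and the width 1099 bases, and within it 33.95% and 2067 bases. Without the first 6 Mb the median width was 1080 bases (941 to 1150). At gains of at least 2 it was 1117 bases (823 to 1406). Both of these width intervals overlap that of the lost peaks. The median GC content at gains of at least 2 was 43.3% (40.2 to 47.9%), an interval that includes the lost median. Starts on both strands were found within 11.2% of gained (7.76 to 15.9%) and 6.05% of lost intervals (4.89 to 7.46%).

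The assigned genes were also shorter. The median length of the protein-coding genes was 3170 bases (95% interval 2774 to 4181) for gained and 7566 bases (6714 to 8840) for lost peaks, and 2166 bases over all protein-coding genes. For gains of at least 2 it was 2400 bases (1591 to 3595). Within the first 5 Mb of 2R it was 14205 bases, with a wide interval from 3111 to 49141.

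Heat shock elements were more frequent in the gained peaks than in the lost ones. An exact element was present within 26 of 232 gained intervals (11.2%, Wilson interval 7.76 to 15.9%), within 10 of 1323 lost intervals (0.756%, 0.411 to 1.39%) and within 3 of 115 gained promoter peaks of the regions left out (2.61%, 0.891 to 7.39%). Windows of 1162 bases centred on the 19606 starts of protein-coding genes held one in 1.55% of cases. Corrected for length, there were 0.0873 elements per kb of gained and 0.00667 per kb of lost intervals, and 0.0118 per kb over the 6 arms. Of the 38 peaks with a difference of at least 2, 11 held an element (28.9%, 17.0 to 44.8%), compared with 8 of 94 between 1 and 2 and 7 of 100 under 1. A match of letters shows neither binding nor its absence.

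**Figure D4:**
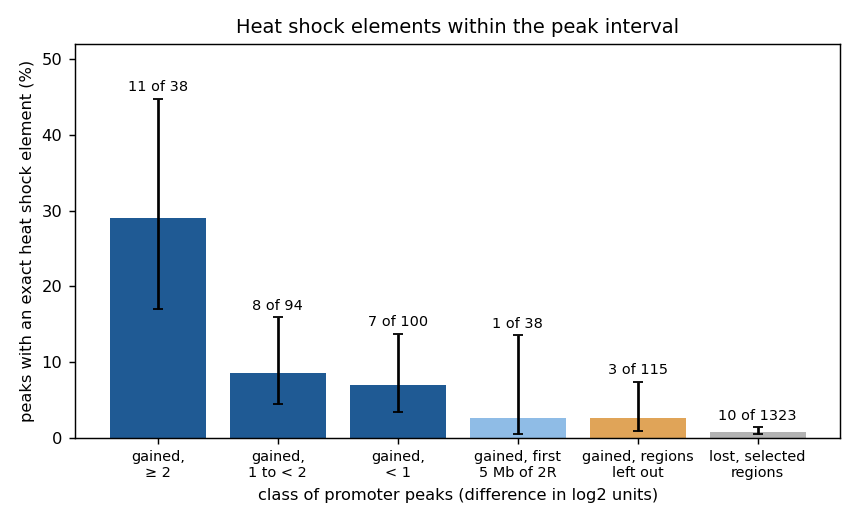
Share of promoter peaks (%) with at least 1 exact heat shock element in the interval, by class; bars are shares, error bars 95% Wilson intervals, and the counts stand above. Blue bars split the 232 gained peaks by the difference in log2 units, and the light blue bar shows the 38 of them in the first 5 Mb of 2R; the share is 28.9% at a difference of at least 2 and 0.756% among lost peaks.

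Most of these elements lay outside the bases next to the start. Of 29 elements in gained intervals, 18 followed the assigned start and 11 preceded it, with a median position 296 bases after the start. By annotation, 10 lay in introns, 8 in UTRs, 1 in coding sequence and 10 between genes. The 300 bases from 250 before to 50 after each assigned start were also searched, whether or not the peak covered them. An exact element stood at only 5 of the 232 assigned starts (2.16%), of which 4 belong to peaks with a difference of at least 2. Of the 29 elements in gained intervals, 4 lay within these bases. With up to 1 mismatch allowed, 50% of gained intervals (43.6 to 56.4%) and 20.9% of lost ones (18.8 to 23.2%) held an element. Beside the 5 peaks printed above, CCT3, CCT6 and PEK are among the peaks with a difference of at least 2 and an exact element, with centres at 177, 649 and -217 bases from the start. Of the 16 gained genes on the chaperone lists, 3 held an exact element in the interval (CCT3, CCT6 and Hsp60A) and 13 did not, among them CG7945, Sgt1, CG10973, Stip1, Hsc70-5, CCT4, Hsp110, Hsp83 and Hsp26. The intervals of CG7945, Sgt1, Stip1, Hsc70-5 and CCT4 lie wholly after the start. For these genes the count does not cover the bases before the start, and it does not show that the genes lack an element.

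Other short motifs were counted in the same 300 bases, on both strands. The DNA replication-related element TATCGATA, a motif of promoters of housekeeping and proliferation genes, was present at 10.8% of gained starts (7.41 to 15.4%), 2.80% of lost starts (2.04 to 3.83%) and 7.98% of all protein-coding starts. TATAAA was found at 54.7%, 29.9% and 42.2%, in the same order, and the GAGA motif GAGAG at 27.2%, 50.9% and 33.1%. The initiator letters TCAGT were found at 38.8% of gained, 54.9% of lost and 52.1% of all starts. These differences run alongside base composition, since the median GC content of the windows was 35.0% for gained, 44.3% for lost and 39.3% for all starts, and its part in them was not tested. The antioxidant motif TGACNNNGC (7.76%, 9.45% and 8.77%), the FOXO motif GTAAACA (8.19%, 6.500% and 8.84%) and the AP-1 motif TGANTCA (6.03%, 7.48% and 6.28%) had similar shares with overlapping intervals in gained and lost peaks.

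The gained peaks were unevenly spread over the arms. Arm 2R held 103, 3L 50, 3R 29, X 26 and 2L 24. Gained peaks were 28.0% of the listed promoter peaks on 2R, 14.97% on 3L, 10.8% on X, 8.86% on 2L and 8.48% on 3R. On 2R most of them lay near the centromere. The first 6 Mb held 69 gained and 4 lost promoter peaks, and the rest of the arm 34 gained and 261 lost ones. All 38 listed promoter peaks of the first 5 Mb were gained. On X, where the rule set no limit either, the last 5 Mb held 3 gained and 28 lost promoter peaks.

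**Figure D5:**
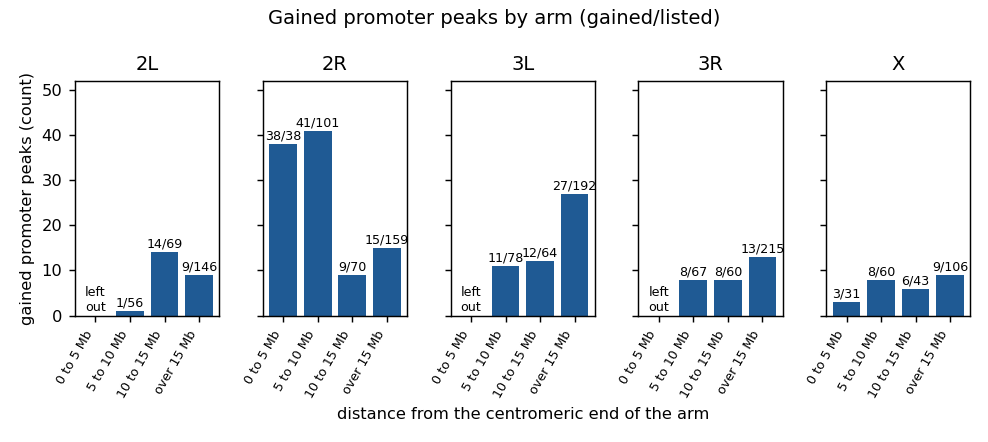
Number of gained promoter peaks by arm and by distance from the centromeric end of the assembled arm; the numbers above the bars give gained over listed promoter peaks, and the first 5 Mb of 2L, 3L and 3R were left out by the rule. The bars of 2R from 0 to 5 and 5 to 10 Mb stand out with 38 and 41 gained peaks, while the first bar of X holds 3.

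The peaks near the centromere of 2R differed from the other gained peaks in several measures. Their median difference was 0.94, with none at 2 or above, against 1.15 for the rest. They lay at higher levels, with a median of 110 normalized reads per kb in control against 70.6. Annotated transposable elements overlapped 16 of these 38 intervals (42.1%, 27.85 to 57.8%), 24 of the 194 others (12.4%, 8.46 to 17.75%), 18 of 1323 lost intervals (1.36%) and none of the 38 intervals with a difference of at least 2. In that respect they resembled the gained promoter peaks of the regions left out, with 38.3%, and an exact heat shock element was found in only 1 of them, at CG17528. Reads from repeats can map to several places, and how the authors' alignment treated these was not tested. The largest gains here were those of CG17486 (1.66 and 1.50), CG14464 (1.43), the noncoding RNA dntRL (1.29) and the kinase gene Stlk (1.24).

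The highest etomoxir means per interval came from this stretch or its edge, and they depend on width. Rl, the ERK MAP kinase of the fly, had log2 means of 10.10 and 10.95, which is 386 and 697 normalized reads per kb and the highest level of all 232 peaks in both groups. CG3107 (8.88 and 10.33), CG12547 (8.92 and 10.10), Haspin (8.98 and 9.90) and Maf1 (9.53 and 9.90) followed by total, and CG3107, Haspin and Maf1 are the widest peaks. Per kb of interval their etomoxir levels were 316, 336, 215 and 241.5, in the same order, which put Haspin at place 76 and Maf1 at place 60 of the 232.

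Gained peaks occurred in runs of neighbours. With a gap of at most 50 kb allowed, 9 runs of 4 or more gained promoter peaks were found, of which 7 are on 2R and 2 on 2L, and only 1 of the 9 had a lost promoter peak within it. Most of the runs on 2R lie in its first 6 Mb, where 69 gained and 4 lost promoter peaks were listed. Several peaks of a run can belong to 1 gene. The genes in these runs are named after their values were seen. In 1 of the runs on 2L, 5 peaks over 53.1 kb belonged to CtsL4, CG5056, Cdk1, the mitochondrial ribosomal protein mRpS7 and CG17768, with differences from 1.01 to 2.67. The run with the most peaks, on 2R, had 14 over 168 kb that include Nipped-A and sxc.

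Most genes had a single gained promoter peak. Of 209 genes, 188 had 1 peak, 19 had 2 and 2 had 3. The latter were sxc, the O-GlcNAc transferase, with 1.19 to 1.37, and Maf1 with 0.37 to 0.79. Pairs with large gains away from the centromere of 2R were those of Chchd2 (3.24 and 1.39), Hers, a repressor of histone genes (1.96 and 1.25), and CkIIalpha, the catalytic subunit of casein kinase 2 (1.95 and 1.26). CkIIalpha lies 11.4 kb inside the limit of the rule on 3L, and repeats cover 96.1% and 53.1% of its intervals, in the same order. The second CkIIalpha peak covers the start while the first lies 298 bases after it, and both peaks of Hers lie before the start. Peaks of 1 gene share a target and are not independent.

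Only 5 of the 209 genes had peaks in both directions. At CG11050 a peak 2389 bases after the start gained 1.21 while a peak at the start fell by 1.05. At Src42A, a tyrosine kinase gene, gained and lost promoter peaks had differences of 0.60 and -0.93. FBgn0025683 had a gained peak 1402 bases after the start (0.86) and a lost one at the start (-0.50). At CG30222 (1.12) and Gbs-70E, which encodes a glycogen-binding subunit of a phosphatase (0.68), the lost peak was outside the promoter class, at -1.39 and -0.98.

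Nearly all assigned genes were protein-coding. Of the 232 peaks, 208 were assigned to protein-coding genes (89.7%, 85.1 to 92.95%), against 77.55% of lost peaks (75.2 to 79.7%), 15 to noncoding RNAs, 1 to a tRNA and 8 to 6 identifiers without a match. The noncoding RNAs with the largest gains were lncRNA:CR44273 (1.69) on 2R, lncRNA:CR44589 (1.57) on 2L, lncRNA:CR42646 (1.53) on 2R, lncRNA:CR34044 (1.50) on 3R and lncRNA:CR43256 (1.37) on 2R. Assignment to the nearest start can pick the wrong gene: 35 gained intervals also hold the start of a gene to which they were not assigned, and 30 hold the starts of 2 or more genes. At mRpL20 (2.38), for example, the interval reaches an intron of CG11267, which was on the list of mitochondrial chaperones as Hsp10, and an exact heat shock element lies there.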

How the data were processed

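H3K18ac Cut&Run of 5 wing disc libraries was analysed from 1 deposited table. Per the labels and the paper's methods, the authors trimmed reads with Trim Galore! 0.6.3, aligned them to dm6 with Bowtie2 2.4.2, removed duplicates, called peaks with MACS2 2.1.1.20160309.6, compared groups with DiffBind 2.10.0 and annotated peaks with ChIPseeker 1.18.0. Yeast DNA was spiked in, and its use for scaling is not given in the sources used here. The deposited log2 values are the authors' mean normalized read counts per group, with no value per library. Raw counts and depth per library were not analysed here. The study's Reporting Summary describes 1 cultured control with far more unique reads than the other libraries, and its effect was not tested. The authors' p-value and FDR of each peak and their log2 fold change were not used, except to check that the highest FDR did not exceed 0.05. The authors' distance to the start, in bases, was recomputed and was equal at 100% of peaks.

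The difference is the etomoxir minus the control log2 mean, and reads per kb are the unlogged mean divided by the width. No differential test was possible, and shares have 95% Wilson intervals and medians 95% binomial intervals, which cover counting error over peaks only. Starts, genes and transposable elements came from Ensembl release 115 (BDGP version 6.54), which matched 98.2% of 1785 gene identifiers, and sequences and repeat masking from RefSeq. Python 3.11.15, numpy 2.4.6, pandas 2.3.3 and scipy 1.17.1 were used. The element search, the geometry and the intervals were tested on simulated data. The members and gene lists were chosen with earlier results of these data known. Genes are named by a rule: the 15 largest differences, the 5 highest etomoxir means, up to 8 genes with several gained peaks, up to 4 genes per list, the 3 peaks on each side of zero, the 3 widest, the 5 largest with a heat shock element or within the first 5 Mb of 2R, up to 8 genes with gained and lost peaks and 5 noncoding RNAs. Other genes (CG33217, mrj, cnc, ACC, AcCoAS, Droj2, spag, BI-1, Usp47, DnaJ-1, stv, GstD2, unc-45, CG7130, CG7133, Nipped-A, CG17528, mRpL20, CG11267 and the members of runs) were chosen after their values were seen, as was the plot of every listed gene.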

Additional observations from a re-analysis of the deposited data

How the results depend on the processing

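Alternatives were set for each count, median and share. The 232 gained promoter peaks became 124 when the interval had to hold the start and 132 with a difference of at least 1, and the 209 genes became 120 and 123. The counts stayed within 1.5 times with starts within 1000 bases (202 peaks), with peaks merged (208) and without the first 5 Mb of 2R and the last 5 Mb of X (191). The median GC content moved to 40.8% without these stretches, and the median difference to 1.44 with a minimum of 1. The share that holds the start was 61.4% within 1000 bases. The share with a heat shock element was 2.16% in the 300 bases around the start and 50% with 1 mismatch allowed, as the narrower window and the looser motif would give by construction. An alternative without the first 6 Mb of 2R was chosen after seeing the data, and it gave 163 peaks, a median width of 1080 bases, a median GC content of 41.7% and a share with an element of 14.7%. Of 34 list counts set against an alternative, 33 stayed within 1.5 times, and ribosomal proteins fell to 1 without the first 5 Mb of 2R. No paired analysis was possible because the table gives group means only, and leaving out a library was not possible for the same reason. The depth of each library is unknown from the table, so the precision of the low control means could not be given.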
